A study of Homo sapiens with 6 samples.

Results

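The genes described here are 10 members of the Hippo pathway in M14 cells: the transcriptional coactivators YAP1 and WWTR1 (the gene of TAZ), the DNA-binding factors TEAD1, TEAD2, TEAD3 and TEAD4, the kinases LATS1 and LATS2, and the scaffold proteins AMOTL1 and AMOTL2. They were taken by symbol from the deposited table of 26748 genes, all 10 were found, and all 10 passed the filter on low values, which asked for 10 normalised counts on average across the libraries and left 15598 genes tested. M14 is an established human line that the labels call melanoma, and its identity was not tested here. Its poly(A) RNA was sequenced from cells attached to a dish (2D, 3 libraries) and from unattached cells grown as floating multicellular melanospheres (3D, 3 libraries), and the study set the cultures side by side to characterise putative cancer stem cells. The labels give no treatment, no engineered allele and no time in culture, and nothing in them ties the replicates to separate cultures, so the spread behind every p-value is that of these libraries and may be technical.

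In the Hippo pathway the kinases STK3 and STK4, with the scaffold SAV1, activate LATS1 and LATS2, which act with the cofactors MOB1A and MOB1B. LATS kinases phosphorylate YAP and TAZ, which keeps these out of the nucleus. When not phosphorylated, YAP and TAZ bind TEAD factors and switch on target genes. Angiomotin-like proteins hold YAP and TAZ at junctions and actin and assist LATS. Cell attachment, spreading and crowding are known inputs of the pathway. LATS2 and AMOTL2 are themselves known targets of YAP and TAZ, as parts of a feedback loop. Transcript levels do not report phosphorylation or location of the proteins.

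Because TEAD factors bind the core element GGAATG, the start regions of the members were searched for these letters on both strands, from 250 bases before to 50 bases after each start in RefSeq (GRCh38.p14). Entries were found for 8 of the 10 members, as 12 windows, and not for TEAD1 and TEAD4. The element occurred in 3 of the 12 windows, those of YAP1, LATS2 and AMOTL2, against 14.03% of all 35116 windows. By gene it was in 3 of 8 members, against 16.7% of 27305 genes. These matches are letters only and show no binding. They are printed 5′ to 3′ on the strand of the gene, with the element in capitals. All 3 genes were lower in 3D, and so was LATS1, whose windows held no match. TEAD1 and TEAD4, also lower, could not be searched, and the other window of AMOTL2 held no match. The members not called, WWTR1, TEAD2, TEAD3 and AMOTL1, had no match either. How often the element occurs among all genes lower in 3D was not counted, and any link to the calls was not tested. For YAP1 the 250 bases before the start are given (chr11:102110197-102110446, plus strand), with the element beginning 162 bases before the start. For LATS2 (chr13:21061560-21061589, minus strand) and AMOTL2 (chr3:134374499-134374528, minus strand) only the 30 bases around the element are given. It lies 9 bases after the start of LATS2 and, reading CATTCC because it is on the opposite strand, 69 bases before a start of AMOTL2.
YAP1: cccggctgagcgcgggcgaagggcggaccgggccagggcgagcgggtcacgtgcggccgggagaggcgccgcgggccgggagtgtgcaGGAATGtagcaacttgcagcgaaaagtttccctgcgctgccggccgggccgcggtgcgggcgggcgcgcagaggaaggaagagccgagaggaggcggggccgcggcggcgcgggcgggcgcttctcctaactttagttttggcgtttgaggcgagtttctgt
LATS2: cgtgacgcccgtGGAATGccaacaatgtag
AMOTL2: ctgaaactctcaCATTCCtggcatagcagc

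The libraries held 16567763 to 19954987 reads assigned to genes. The adherent library labelled 2D replicate 3 stood apart. Across genes its log2 values correlated at 0.943 to 0.945 with the other 2D libraries, which correlated at 0.984 with each other. With the 3D libraries, 2D replicate 3 correlated at 0.928 to 0.935, and 2D replicates 1 and 2 at 0.877 to 0.891. Across genes, 2D replicate 3 was thus nearer to 3D than the other 2D libraries were. The library 3D replicate 2 correlated at 0.966 to 0.967 with the other 3D libraries, which correlated at 0.987. Fits that leave out 1 library in turn were therefore run, 6 in all. The counts of called genes were also taken without 2D replicate 3 and 3D replicate 2 together. Markers of the melanocyte lineage were mostly low, with 5 of 8 under 50 normalised counts in every library: SOX10 reached 37.0 at most, S100B 13.4, MLANA 17.5 and TYR 33.9, whereas PMEL ran from 227 to 1377 and MITF from 271 to 1295. Of the 3 tested, MITF and DCT fell (log2 -1.95 and -5.48, adjusted p = 0.00077 and 0.0014, limma, and in all 6 fits with a library left out), and PMEL had a log2 change of 1.41 (adjusted p = 0.053). The summed level of that list was 1596 to 1873 in 2D and 910.2 to 1666 in 3D. Of the fibroblast list, 4 of 6 genes were in the table, 1 of 3 tested rose (COL3A1), the sum was 2042 to 6539 in 2D and 9263 to 12212 in 3D, and DCN was at 0 in every 2D library and at most 3.88 in 3D. Of the epithelial list, 4 of 5 were in the table and 2 of 3 tested fell (EPCAM and CDH1). The sums were 9025 to 15323 in 2D and 8683 to 13041 in 3D. Most of each sum was KRT18, at 8502 to 14848 in 2D and 8543 to 12839 in 3D (log2 -0.05, adjusted p = 0.90, limma). The part of these lists in the results was not tested. In bulk RNA, fewer cells of a kind and less RNA per cell cannot be told apart.

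Of the 10 members, 6 were lower in 3D and 0 were higher (limma, Benjamini-Hochberg adjusted p under 0.05 over all 15598 genes). Among all genes tested, 24.1% were called by the same rule, 11.6% lower and 12.5% higher. The members that fell were YAP1, TEAD1, TEAD4, LATS1, LATS2 and AMOTL2. At an unadjusted p under 0.05 (limma), 1 member was higher, TEAD2, as were 3121 of all 15598 genes tested. By edgeR 0 members were higher and by DESeq2 1, again TEAD2, against 12.5% and 15.4% of all genes. The median log2 change of the 10 members was -0.95, against -0.02 over all genes tested, on the log2(normalised count + 1) scale used for every change below. In 7 members the values of the cultures did not overlap, as in 43.1% of all genes tested. With 2D replicate 3 left out, alone or together with 3D replicate 2, 6 members were lower and 1, TEAD2, was higher. These fits called 23.0% and 29.5% of all genes lower and 22.6% and 28.4% higher. With any 1 of the other 5 libraries left out, 4 were lower, as the calls of YAP1 and LATS1 were lost, in fits that called 4.21% to 9.03% of all genes lower.

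**Figure D1:**
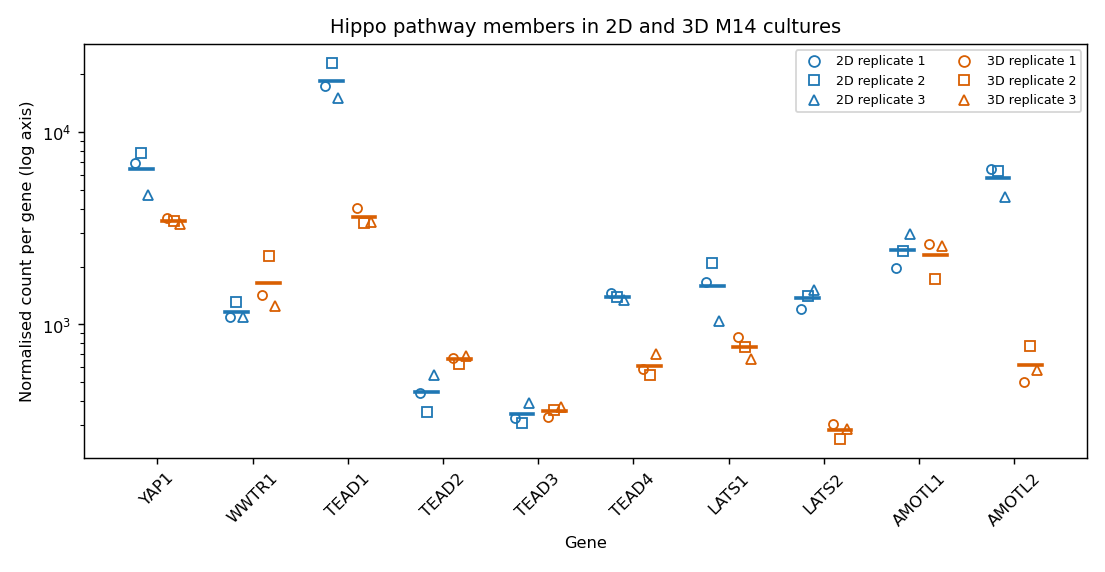
Normalised counts (log axis) of the 10 genes in each library, with blue symbols for 2D, orange for 3D, a symbol shape per replicate number and a bar at the mean of 3 libraries. TEAD1, AMOTL2 and LATS2 show the widest gaps between cultures, and the cultures overlap for WWTR1, TEAD3 and AMOTL1.

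**Figure D2:**
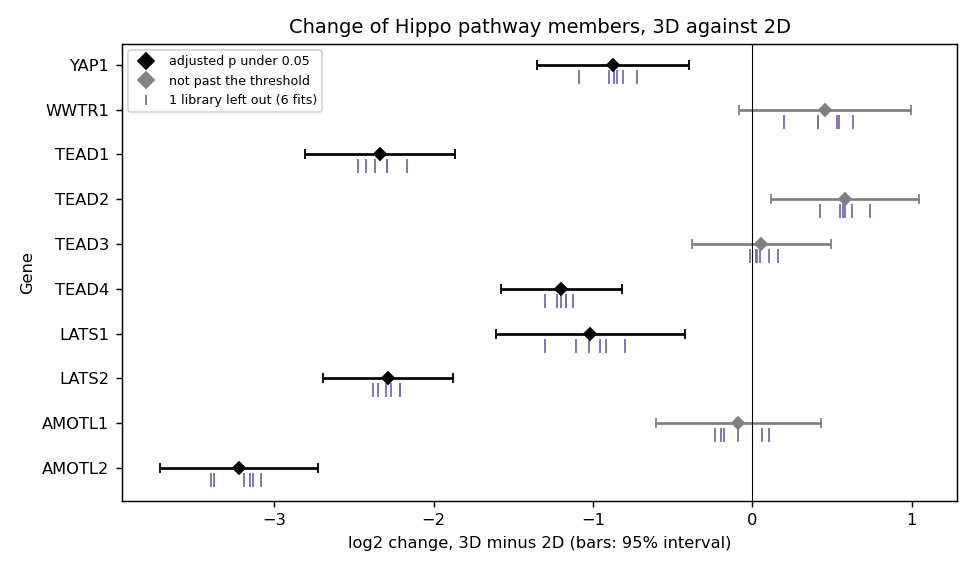
Log2 change (3D minus 2D) of each gene with its 95% interval from limma, black where the adjusted p is under 0.05 and grey otherwise. Violet ticks are the values with 1 library left out. The 6 black points lie between -3.22 and -0.87, and the ticks of TEAD3 and AMOTL1 fall on both sides of 0.

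The coactivators moved unequally. YAP1 (ENSG00000137693, chromosome 11, 102110461 to 102233423, GRCh38, GENCODE 29) had 6916, 7775 and 4726 normalised counts in 2D replicates 1, 2 and 3 and 3584, 3438 and 3346 in 3D. Every 2D library was above every 3D library, and 2D replicate 3 lay nearest to 3D, at 58.4% of the way from the mean of the other 2D libraries to the 3D mean on the log2 scale. The mean fell from 6472 ± 1572 to 3456 ± 120.3 (SD, n = 3 each), a log2 change of -0.87 (SE 0.21, adjusted p = 0.021, limma). With 1 library left out the change was -1.09 to -0.73 and the adjusted p 0.00047 to 0.088, under 0.05 only without 2D replicate 3.

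WWTR1 (ENSG00000018408, chromosome 3, 149517235 to 149736714) encodes TAZ, the paralog of YAP. It had 1096, 1312 and 1094 in 2D and 1429.8, 2266 and 1249 in 3D. The cultures overlapped, and 3D replicate 2 held the highest value. The difference did not pass the test, with a log2 change of 0.45 (95% interval -0.08 to 0.99, adjusted p = 0.18; 0.20 without 3D replicate 2, and up to 0.63 without 3D replicate 3). A fall of the size seen for YAP1 lies outside that interval. Of its exonic length, 9.45% overlaps WWTR1-AS1 on the opposite strand, which had 7.20 to 13.3 normalised counts in 2D and 14.8 to 23.3 in 3D. The libraries do not mark the strand. Genes on the opposite strand also overlap 9.97% of the exonic length of YAP1, 4.72% of LATS1 and 4.94% of AMOTL1. Those over YAP1 and AMOTL1 have no values here. The part of such reads in the levels of these members was not tested.

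The log2 ratio of WWTR1 to YAP1 within a library was -2.66, -2.57 and -2.11 in 2D and -1.33, -0.60 and -1.42 in 3D. The ranges did not overlap, and the mean rose by 1.33 (1.07 to 1.496 with 1 library left out). The two-sided exact permutation test gave p = 0.10, also after adjustment over the 7 ratios and shares tested, which is the smallest value that 3 against 3 libraries allow.

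Of the TEAD factors, which carry the DNA-binding domain of the complex, TEAD1 and TEAD4 fell and TEAD2 and TEAD3 did not pass the test. TEAD1 (ENSG00000187079, chromosome 11, 12674591 to 12944483) had 17435, 22953 and 14994 normalised counts in 2D and 4049.9, 3384 and 3396 in 3D. The lowest 2D library was far above the highest 3D library. The mean fell from 18461 ± 4077 to 3610.1 ± 381, and the fitted change was a 5.05-fold fall (log2 -2.34, SE 0.21, adjusted p = 0.00055). The call held in all 6 fits with a library left out, with changes of -2.48 to -2.17.

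TEAD4 (ENSG00000197905, chromosome 12, 2959330 to 3040673) had 1457, 1389 and 1345 in 2D and 585, 548 and 702 in 3D. The libraries of each culture lay close together, 2D replicate 3 included. The mean fell from 1397 ± 56.7 to 611 ± 80.6, and the fitted change was a 2.29-fold fall (log2 -1.20, SE 0.17, adjusted p = 0.0028), and the call held in all 6 fits with a library left out (-1.30 to -1.12).

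TEAD2 (ENSG00000074219, chromosome 19, 49340595 to 49362457) had 440.3, 352 and 545 in 2D and 667, 619 and 686 in 3D. Every 3D library was above every 2D library, but the difference did not pass (log2 0.58, 95% interval 0.11 to 1.05, adjusted p = 0.070; with 1 library left out it ran from 0.0082, without 2D replicate 3, to 0.23). With libraries rescaled to equal totals it passed (log2 0.71, adjusted p = 0.036). Of its exonic length, 10.7% overlaps CD37 on the opposite strand, a gene that itself ran from 45.7 to 63.0 in 2D and from 127 to 292 in 3D, and the part of these reads in the level of TEAD2 was not tested. TEAD3 (ENSG00000007866, chromosome 6, 35473597 to 35497076) had 325, 306 and 392 in 2D and 331, 358 and 371 in 3D, which overlapped (log2 0.06, interval -0.38 to 0.49, adjusted p = 0.85). A change of TEAD3 as large as that of TEAD4 in either direction lies outside this interval.

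To compare levels between genes, normalised counts were divided by the length of each gene's annotated exons in kilobases. On this scale the 4 TEADs summed to 2592, 3063 and 2362 per kb in 2D and 984, 896 and 991 in 3D. TEAD1 made up 65.4%, 72.9% and 61.8% of that sum in 2D and 40.05%, 36.8% and 33.3% in 3D. The share of TEAD2 was 5.77% ± 1.94 (SD, n = 3) in 2D and 23.1% ± 0.272 in 3D, that of TEAD3 4.28% ± 1.09 and 12.1% ± 1.04, and that of TEAD4 23.3% ± 2.86 and 28.1% ± 2.70. The cultures did not overlap for any of the 4 shares, each with an exact permutation p of 0.10, the smallest possible (0.10 adjusted over the 7 tested). With 1 library left out the difference in share (3D minus 2D) was -32.5 to -26.9 percentage points for TEAD1, 16.3 to 18.3 for TEAD2 and 7.37 to 8.45 for TEAD3. That of TEAD4, 4.82 points, was 3.18 when 2D replicate 2 was left out and 3.28 when 3D replicate 3 was. The shares add to the whole, so they are not independent of one another.

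**Figure D3:**
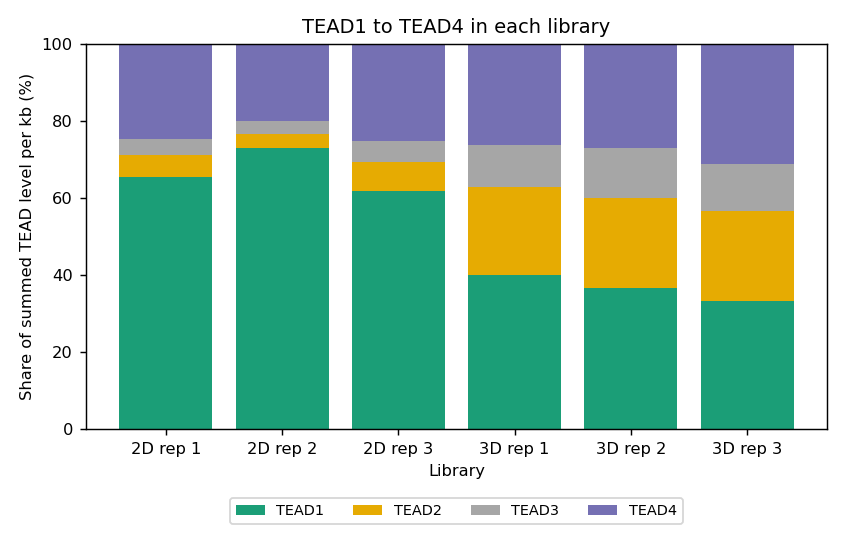
Stacked bars of the share of each TEAD (percent) in the summed TEAD level per kilobase, 1 bar per library. TEAD1 takes 61.8% to 72.9% in the 2D libraries and 33.3% to 40.05% in the 3D libraries, and the TEAD2 part is wider in every 3D library.

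Both LATS kinases fell. LATS1 (ENSG00000131023, chromosome 6, 149658153 to 149718256) had 1668, 2076 and 1036 normalised counts in 2D and 858, 765 and 658 in 3D. The cultures did not overlap, but 2D replicate 3 lay 65.0% of the way to the 3D mean. The mean fell from 1593 ± 524 to 760.2 ± 100.4 (log2 -1.02, SE 0.26, adjusted p = 0.026). With 1 library left out the change was -1.30 to -0.80 and the adjusted p 0.00067 to 0.11, under 0.05 only without 2D replicate 3.

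LATS2 (ENSG00000150457, chromosome 13, 20973032 to 21061547) had 1204, 1412 and 1519 in 2D and 305, 253 and 286 in 3D. Here 2D replicate 3 was the highest of the 2D libraries. The mean fell from 1379 ± 161 to 281 ± 26.4, and the fitted change was a 4.88-fold fall (log2 -2.29, SE 0.18, adjusted p = 0.00037), and the call held in all 6 fits with a library left out (-2.38 to -2.21). The log2 ratio of LATS2 to LATS1 was -0.47, -0.56 and 0.55 in 2D and -1.49, -1.59 and -1.20 in 3D. The ranges did not overlap, with a difference of -1.27 (-1.47 to -0.91 with 1 library left out; exact permutation p = 0.10, the smallest possible; 0.10 adjusted over the 7 tested).

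Of the angiomotin-like scaffolds, AMOTL2 fell and AMOTL1 did not pass the test. AMOTL2 (ENSG00000114019, chromosome 3, 134355874 to 134375479) had 6443, 6257 and 4583 normalised counts in 2D and 503, 773 and 581 in 3D, a gap between the cultures that was wider on the log2 scale than for any other member. The mean fell from 5761 ± 1024 to 619 ± 139, and the fitted change was a 9.34-fold fall (log2 -3.22, SE 0.22, adjusted p = 0.00029), and the call held in all 6 fits with a library left out (-3.39 to -3.09). Of all genes tested, 2.19% fell by at least 2 on the log2 scale, as AMOTL2, TEAD1 and LATS2 did.

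AMOTL1 (ENSG00000166025, chromosome 11, 94706431 to 94876753) had 1970.0, 2404 and 2966 in 2D and 2627, 1728 and 2566 in 3D. The cultures overlapped, with the lowest value in 3D replicate 2. The difference did not pass (log2 -0.09, 95% interval -0.61 to 0.43, adjusted p = 0.80), and its sign turned with equal library totals (0.04), without 2D replicate 3 (0.06) and without 3D replicate 2 (0.11). The log2 ratio of AMOTL2 to AMOTL1 was 1.71, 1.38 and 0.63 in 2D and -2.38, -1.16 and -2.14 in 3D. AMOTL2 thus had more normalised counts than AMOTL1 in every 2D library and fewer in every 3D library. The mean ratio changed by -3.13 (-3.50 to -2.89 with 1 library left out; exact permutation p = 0.10, the smallest possible; 0.10 adjusted over the 7 tested).

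**Figure D4:**
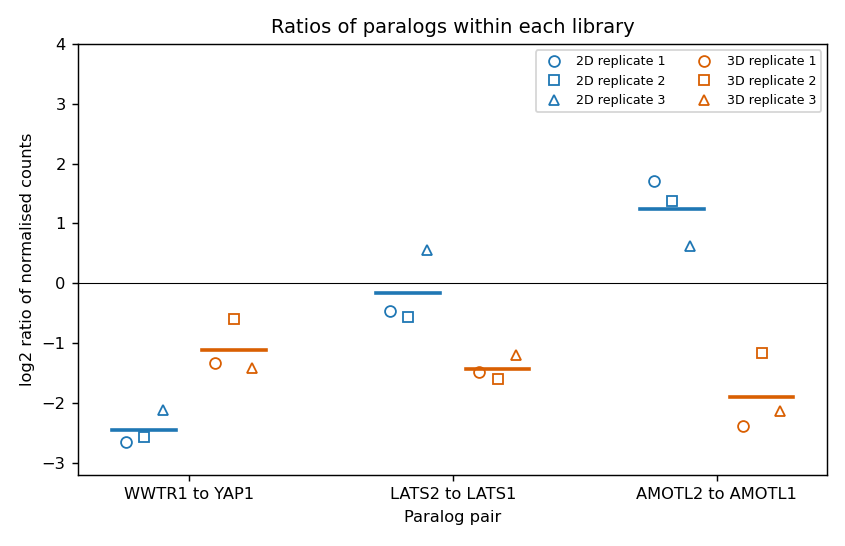
Log2 ratio of normalised counts of 3 paralog pairs within each library, blue for 2D and orange for 3D, with a bar at the mean of 3 libraries. WWTR1 to YAP1 is higher in every 3D library, LATS2 to LATS1 and AMOTL2 to AMOTL1 are lower, and AMOTL2 to AMOTL1 crosses 0 between the cultures.

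The order of the members by level per kilobase changed between the cultures. In 2D it ran TEAD1 (1796 ± 397, SD, n = 3), YAP1 (1028 ± 249.7), AMOTL2 (963 ± 171), TEAD4 (615 ± 25.0), LATS2 (247 ± 28.8), AMOTL1 (244 ± 49.8), LATS1 (184 ± 60.6), TEAD2 (149.6 ± 32.4), WWTR1 (139 ± 14.9) and TEAD3 (112 ± 14.7). Neighbours in this order overlapped from YAP1 to AMOTL2 and at each step from LATS2 to WWTR1, so these neighbours do not differ beyond their spread. Genes further apart can: the lowest LATS2 and AMOTL1 libraries (215.8 and 196.3) lay above the highest of TEAD2 and WWTR1 (182.8 and 155.9). In 3D it ran YAP1 (549 ± 19.1), TEAD1 (351 ± 37.1), TEAD4 (269 ± 35.5), AMOTL1 (229.9 ± 50.03), TEAD2 (221 ± 11.6), WWTR1 (196 ± 64.5), TEAD3 (116 ± 6.59), AMOTL2 (103 ± 23.2), LATS1 (88.0 ± 11.6) and LATS2 (50.4 ± 4.74). Neighbours overlapped from TEAD4 to WWTR1 and from TEAD3 to LATS1. YAP1 was above WWTR1 in every library of both cultures, AMOTL2 went from the third place to the eighth, and LATS2 from the fifth to the last.

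Around the members, a list of 89 other Hippo pathway genes had 85 in the table and 82 tested. Of these, 26 were lower and 1 was higher in 3D, 31.7% lower against 11.6% of all genes tested, with a median log2 change of -0.48 against -0.02. Of the core of the cascade, STK3 fell from 385 ± 38.1 to 195 ± 6.63 (log2 -0.97, adjusted p = 0.011) and SAV1 from 1068 ± 64.8 to 518 ± 66.6 (log2 -1.05, adjusted p = 0.0053). When 2D replicate 1 or either of 3D replicates 1 and 3 was left out, STK3 lost its call (its adjusted p ran from 0.0023 to 0.055 in these 6 fits), while that of SAV1 held in all 6. STK4, the paralog of STK3, had a log2 change of -0.09 (95% interval -0.49 to 0.30), MOB1A -0.13 (-0.53 to 0.26), MOB1B -0.20 (-0.67 to 0.28) and NF2, the membrane scaffold merlin, 0.09 (-0.40 to 0.58). None of these 4 passed (adjusted p of 0.52 to 0.78), nor did they in any of the 6 fits with a library left out, in which the change of NF2 ran from -0.04 to 0.30.

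Among groups of that list, 5 of 7 genes of the NF2 complex, 4 of 5 LIM and PTPN14 regulators, 6 of 15 polarity genes, 3 of 7 nuclear cofactors, 2 of 4 genes of YAP and TAZ turnover and 2 of 7 genes of the MST kinase group (STK3 and SAV1) were lower, against 11.6% of all genes tested. The STRIPAK phosphatase, which acts against STK3 and STK4, had 2 of 14. The 14-3-3 proteins, which hold phosphorylated YAP in the cytoplasm, had 1 of 7, and the TAO and MAP4 kinases 1 of 10. By this rule these groups were near 11.6%. At an unadjusted p under 0.05 (limma) they had 5 of 14, 5 of 7 and 7 of 10, with median log2 changes of -0.37, -0.54 and 0.09. Those of STRIPAK and 14-3-3 were all lower, and those of the TAO and MAP4 kinases went both ways. At that p, 3121 of all 15598 genes tested were higher and 3170 lower. Of the LATS cofactors, the LATS-like kinases and the FAT and DCHS cadherins, with 2 genes tested in each, 0 passed by limma, edgeR or DESeq2, and 0 had an unadjusted p under 0.05 in limma. AJUBA, a LIM protein that restrains LATS, had 4882, 4739 and 2131 in 2D and 545, 500.2 and 575 in 3D (log2 -2.76, adjusted p = 0.0010). The 2D libraries were all above the 3D libraries, with 2D replicate 3 the lowest of them. PTPN14 and PTPN21, phosphatases of which PTPN14 binds YAP, had log2 changes of -1.69 and -1.48, WWC2, of the KIBRA family of NF2 partners, of -1.70, and SMAD3, a TGF-beta effector that works with TAZ, of -1.91 (adjusted p of 0.00076 to 0.0030). The calls of AJUBA, PTPN14, PTPN21, WWC2 and SMAD3 held in all 6 fits with a library left out. CRB1, a polarity protein, had 938, 795 and 288 in 2D and 11.1, 2.91 and 3.10 in 3D. The 1 gene that rose was TNIK, a kinase of the MAP4K group, from 31.9 ± 13.4 to 187 ± 55.0 (log2 2.53, adjusted p = 0.0039; 2.34 to 2.85 with 1 library left out). The count of genes lower was 13 to 14 when any one of 2D replicates 1 and 2 and 3D replicates 1 and 3 was left out (4.21% to 4.92% of all genes were lower in these fits), and 25 without 3D replicate 2 (9.03%). Without 2D replicate 3 it was 36, with 9 higher, where 23.0% of all genes were lower and 22.6% higher. Without both 2D replicate 3 and 3D replicate 2 it was 46, with 12 higher, where 29.5% of all genes were lower and 28.4% higher.

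**Figure D5:**
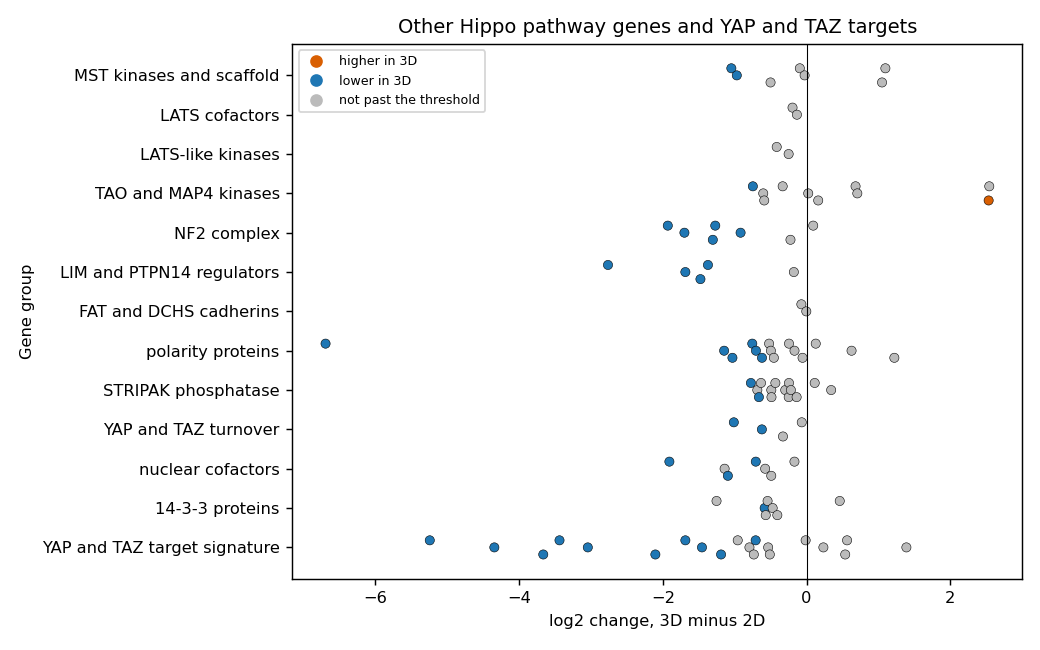
Log2 change (3D minus 2D) of each tested gene of the other pathway groups and of the target signature, 1 point per gene, blue where lower and orange where higher at an adjusted p under 0.05, grey otherwise. The NF2 complex and the LIM and PTPN14 regulators lie mostly below 0, TNIK is the 1 orange point, and 10 points of the target signature are blue.

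Of 20 genes in a signature of YAP and TAZ targets, with LATS2 and AMOTL2 left out because they are members, 10 were lower and 0 higher in 3D (limma; 1 higher at an unadjusted p under 0.05, and 0 higher by edgeR or DESeq2), with a median log2 change of -0.88, against 11.6% of all genes lower, 12.5% higher and a median of -0.02. Of all 15598 genes tested, 3121 were higher at that unadjusted p (limma), and edgeR and DESeq2 called 12.5% and 15.4% higher. PTPN14 is also in this signature. ANKRD1, a target used as a readout of YAP, had 129, 100.3 and 45.2 in 2D and 1.86, 2.91 and 0 in 3D (log2 -5.24, adjusted p = 0.0017). CRIM1, TGFB2 and AXL, a receptor tyrosine kinase, had log2 changes of -2.10, -3.44 and -1.19 (adjusted p of 0.00040 to 0.0093; without 3D replicate 3 the adjusted p of AXL was 0.052, and the calls of ANKRD1, CRIM1 and TGFB2 held in all 6 such fits). The matricellular genes CCN1 and CCN2 were highest in 2D replicate 3, at 18821 and 3321, against 2214 to 2415 and 274 to 328 in the other 2D libraries and 332 to 1283 and 20.4 to 158 in 3D, where 3D replicate 2 was the highest. In that same 2D library YAP1, WWTR1, TEAD1, TEAD4, LATS1 and AMOTL2 were at their lowest of the 2D libraries, and TEAD2, TEAD3, LATS2 and AMOTL1 at their highest. For WWTR1 (1093.9 against 1096.0 in 2D replicate 1) and TEAD4 (1345 against 1389 in 2D replicate 2) the margin was small. CCN1 and CCN2 fell, with log2 changes of -3.04 and -3.66 (adjusted p = 0.030 and 0.032), which were -2.04 and -2.51 without 2D replicate 3. Both calls were lost when 3D replicate 1 or 3 was left out (adjusted p of 0.10 to 0.11). Of the targets, 7 were lower when 3D replicate 1 was left out and 6 when 3D replicate 3 was (4.47% and 4.21% of all genes). Without 2D replicate 3, 12 targets were lower and 3 higher, where 23.0% of all genes were lower and 22.6% higher. Without both 2D replicate 3 and 3D replicate 2, 13 targets were lower and 3 higher, where 29.5% of all genes were lower and 28.4% higher.

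Among 11094 genes with a mean of at least 100, the genes whose log2 values over the 6 libraries were most like those of YAP1 were NRIP1, OSBP and EYA4, with a Pearson r of 0.998 to 0.999, and 725 genes had an r over 0.95. For WWTR1 they were GORAB (0.994), MREG (0.981) and THUMPD2 (0.977), and 11 genes had an r over 0.95. With 6 libraries in 2 cultures, these values describe the shape of the profiles only.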

How the data were processed

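Per the labels' protocols, RNA of M14 cells was column-purified, made into TruSeq RNA v2 libraries and sequenced on an Illumina NovaSeq. The tools named per the submitters' processing notes are HISAT2, featureCounts (version 1.5.0) and DESeq2, on build GRCh38 (hg38). Their other versions and the gene annotation are not stated in what was used here. The deposited signal per gene is a read count that the authors divided by 1 size factor per library, as its values show: 100% of values were whole multiples of a step per library (tolerance 0.01 of a read). The table also held 6 empty columns, not used.

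Groups and replicate numbers came from sample titles. Symbols came from a name table (26506 of 26748 genes) and positions and exon lengths from GENCODE 29. Genes with a mean of at least 10 were tested with limma 3.58.1 (R 4.3.3) on log2(value + 1), eBayes with trend, culture as the only term, Benjamini-Hochberg threshold 0.05. Ratios and shares used a two-sided exact permutation test over libraries. Alternatives were a pseudocount of 0.1 or 10, testing every gene, a minimum mean of 50, TMM scaling, equal totals, robust eBayes, a replicate block, edgeR 4.0.16 (1944 genes higher, 1713 lower) and DESeq2 1.42.0 on recovered reads, another gene length, and libraries left out. The fits were tested on simulated data.

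The members, the lists and the libraries doubted were chosen with earlier results of these data known. Named were all members, the core cascade (STK3, STK4, SAV1, MOB1A, MOB1B, NF2) and up to 6 other called genes a direction of the pathway list, and CCN1, CCN2, ANKRD1, AXL and up to 2 others a direction of the targets, by smallest adjusted p. Lists of melanocyte, fibroblast, epithelial, leukocyte and endothelial markers were summed: of the leukocyte list (3 of 5 in the table) the sum was 21.0 to 63.7 in 2D and 63.0 to 128 in 3D, and of the endothelial list 39.5 to 308 and 33.0 to 47.3. Shares of 75-base windows that members have in common with another gene were at most 7.96%.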

Additional observations from a re-analysis of the deposited data

How the results depend on the processing

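The calls of TEAD1, TEAD4, LATS2 and AMOTL2 held under every alternative run, and those of YAP1 and LATS1 under all but the 5 fits that leave out a library other than 2D replicate 3. With libraries rescaled to equal totals the median log2 change of all genes was 0.11 (-0.02 as deposited), the calls over all genes were 2391 higher and 1253 lower (1950 and 1816 as deposited, 65.6% against 51.8% higher), 1 member (TEAD2) and 2 other pathway genes were higher, and AMOTL1 turned to 0.043. DESeq2 called 1 member higher, and 15.4% of all genes. Without 2D replicate 3 and 3D replicate 2 together, 4436 genes were higher and 4605 lower, 1 member, 12 other pathway genes and 3 targets were higher, 46 other pathway genes were lower, AMOTL1 was at 0.25 and the AMOTL2 to AMOTL1 ratio fell by 3.81. With 1 library left out, genes higher ran from 534 to 3526 and lower from 656 to 3585, members higher from 0 to 1, other pathway genes higher from 1 to 9 and lower from 13 to 36, targets higher from 0 to 3 and lower from 6 to 12, TEAD3 from -0.016 to 0.16 and AMOTL1 from -0.24 to 0.11. With the longest transcript as gene length the TEAD3 share rose by 6.56 points, against 7.86. The causes were not tested. The values showed no clear pairing of the libraries by replicate number. Deviations from the culture means of same-numbered libraries correlated at -0.08, -0.14 and 0.04, and not every library correlated best with its own number. With 3 libraries per culture, this check is too coarse to settle whether same-numbered libraries belong together. With a replicate block 1748 genes were higher and 1474 lower, and 6 members were again lower and 0 higher. Other pathway genes lower were 20 with the block and 20 with equal totals, against 26 in the main fit. Targets lower were 9 in each, against 10. Of all genes, 9.45% were lower with the block and 8.03% with equal totals. Members had at least 261 reads in every library, and the number of libraries, 3 per culture, limits the precision of their changes.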
